A study of Caenorhabditis elegans with 2 samples.

Results

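The regions described here are the SCC-1 peaks of chromosome III of Caenorhabditis elegans, chosen as all records of the authors' SCC-1 peak list whose chromosome is III. They number 1394 of 6780 peaks on 6 chromosomes. The peaks come from 1 chromatin immunoprecipitation (ChIP-seq) library of whole hermaphrodites of the strain fem-2(b245), genotype fem-2(b245)III, grown at 20 °C and labelled as young adults with a germline, while the growth protocol speaks of gravid adults. A rabbit polyclonal antibody against SCC-1 was used, and 1 input DNA library was made from the same strain and stage. No wild-type library, second antibody or replicate was analysed here, so every interval below covers counting error only and no p-value is given. The mutated gene fem-2 lies on chromosome III itself, per the genotype label. Both libraries were made from this strain, so all their worms carried the allele, and any effect of it on III was not tested.

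Cohesin is a ring of SMC-1, SMC-3, a kleisin and SCC-3 that holds sister chromatids together and shapes interphase chromosomes. SCC-1, the worm counterpart of RAD21, is the kleisin of mitotic cohesin, while REC-8, COH-3 and COH-4 serve in meiosis. Worm chromosomes are holocentric, with kinetochore activity along their length rather than at 1 centromere, and the autosomes have gene-rich centres between arms that are richer in repeats and recombine more. Whole adults mix germline and somatic nuclei, and the list does not tell them apart.

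Chromosome III carried closely packed SCC-1 peaks of ordinary width. Its 1394 peaks lay between bases 2 and 13772472 of the build WS220, a span of 13.8 Mb. This gave 101.2 peaks per Mb, against 71.1 per Mb on the other 4 autosomes together. Its density was 1.42 times that of the other autosomes (exact binomial 95% interval from 1.34 to 1.51). With X included, chromosome III held 20.6% of all peaks on 13.8% of the summed span. Peaks covered 2.51 Mb, or 18.3% of the span, against 12.8% on the other autosomes.

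The higher density held against chromosomes II, IV and V but not against chromosome I. The ratio of III to I was 1.04 (exact binomial 95% interval from 0.961 to 1.11), so the order of these neighbours was not resolved even by counting error. It was 1.37 over II (interval from 1.27 to 1.49), 1.48 over IV (from 1.37 to 1.60) and 1.94 over V (from 1.79 to 2.10). These intervals treat peaks as independent. Counts in 500 kb windows of III varied more than independent placement would give, with a variance 2.25 times their mean, so the intervals are too narrow.

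The excess of peaks was present at all levels of the deposited score. The score is the authors' value from their peak caller, and its scale is not named. Here the score serves to rank and filter peaks of this list and to compare medians. All 6780 peaks were divided into 4 classes of equal size by score. The density ratio of III to the other autosomes was 1.47 in the lowest class (exact binomial 95% interval from 1.30 to 1.66), then 1.37 and 1.53, and 1.34 in the highest class (from 1.18 to 1.51). Scores on III had a median of 539 (exact interval of the median from 450 to 617), and on the other autosomes of 530 (from 487 to 581). Scores pile up at 3100, and 242 of the 1394 peaks on III, or 17.4%, reached that value or more, against a background of 18.8% over chromosomes I to V.

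Along the chromosome, peaks were sparse at the left end and dense in the middle, and the density stayed high to the right end. The 27 complete windows of 500 kb held between 30 and 68 peaks, with a median of 50. The fullest lay from 9500001 to 10000000, with 68 peaks covering 28.5% of the window. It was followed by the adjoining windows from 5000001 to 5500000 and from 5500001 to 6000000, with 66 peaks each. The 3 emptiest windows were the first 3 of the chromosome. They held 30 peaks from 1 to 500000, 36 from 500001 to 1000000 and 31 from 1000001 to 1500000, and peaks covered 9.16%, 10.8% and 7.63% of them. The opposite end was dense: the incomplete last window, from 13500001 to the last peak, held 36 peaks, or 132 per Mb.

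**Figure D1:**
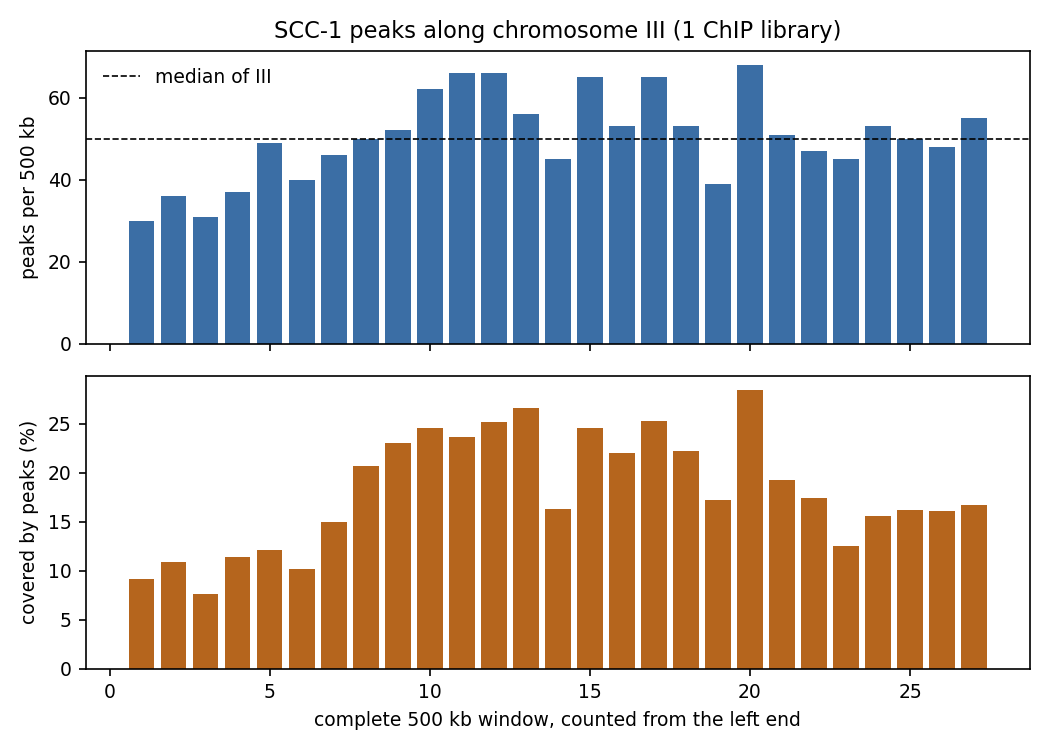
SCC-1 peaks along chromosome III in 27 complete windows of 500 kb counted from the left end, as the number of peaks (top, dashed line at the median of 50) and the percentage of each window covered by peaks (bottom). The first 3 windows are the lowest in number, with 30 to 36 peaks, and window 20 is the highest with 68.

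Low and high windows could lie side by side within the centre. The window just before the fullest, from 9000001 to 9500000, held 39 peaks. It contained the widest peak of the chromosome and also a stretch of 102 kb with no peak. The window from 6500001 to 7000000, with 45 peaks, held a stretch of 133 kb with no peak, while its neighbours held 56 and 65. Windows with more peaks also had more peaks of 5 kb or wider (Spearman's rho 0.71 over 27 windows) and wider peaks at the median (rho 0.51), as a description of windows that share 1 library. The wide peaks are part of the counts they were ranked against, so the first value does not show a larger share of wide peaks.

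Window counts of III had the lowest relative scatter of the autosomes, close to that of I. No interval was computed for these values, so the order of III and I is not settled. The standard deviation of window counts was 21.2% of the mean on III, 23.4% on I, 29.4% on IV, 33.9% on V and 34.0% on II. The fullest window held 2.27 times the peaks of the emptiest on III, and 3.05 times on I, 3.88 times on IV, 4.43 times on II and 11.5 times on V. No complete window of III held fewer than 25 peaks, whereas 1 of 30 did on I, 6 of 30 on II, 6 of 34 on IV and 19 of 41 on V. Relative scatter falls as mean counts rise, and III had the highest mean, 50.3 peaks per window against 26.2 to 48.7 on the others. The variance of the counts over their mean, which allows for the mean, was 2.25 on III, 2.66 on I, 2.96 on IV, 3.01 on V and 4.25 on II. The limit of 25 peaks also follows density, as the median window of V itself held 25. The ratio of fullest to emptiest window can also grow with the number of windows, 27 on III and 41 on V. The parts of mean count and window number in these orders were not tested.

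The left arm of III stood apart from the rest of the chromosome. With 25% of the span taken as an arm on either side, the left arm (bases 2 to 3443119) held 260 peaks or 75.5 per Mb, the centre (3443120 to 10329354) 775 or 112.5 per Mb, and the right arm (10329355 to 13772472) 359 or 104.3 per Mb. The left arm had 0.671 of the density of the centre (exact binomial 95% interval from 0.581 to 0.773). The right arm had 0.926 of it, with an interval from 0.815 to 1.05 that included 1. The right arm thus had 1.38 times the density of the left, with an interval from 1.17 to 1.63. Both arms together had 0.799 of the density of the centre, from 0.717 to 0.889. Sparse arms were not particular to III. The ratio for both arms was 0.800 on I, 0.810 on II, 0.880 on IV and 0.662 on V. Single arms below their centre were the right arms of I (0.692) and IV (0.750), the left arm of II (0.577) and both arms of V (left 0.698, right 0.625). The left arms of I and IV and the right arm of II had intervals that included 1.

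Peaks of the left arm were also narrower than those of the centre. The median width was 1083 bp in the left arm (exact interval of the median from 983 to 1148 bp), 1405 bp in the centre (from 1326 to 1478) and 1188 bp in the right arm (from 1101 to 1367). The intervals of the left arm and the centre did not overlap, and that of the right arm overlapped both. Of the 260 peaks of the left arm 3 were 5 kb or wider, or 1.15% (exact binomial 95% interval from 0.239% to 3.33%), against a background of 4.72% over chromosomes I to V. In the centre 49 of 775 were that wide, or 6.32% (from 4.71% to 8.27%), and in the right arm 13 of 359, or 3.62% (from 1.94% to 6.11%). Low shares of wide peaks were also seen in other arms, with 1.68% in the left arm of II (from 0.347% to 4.82%), 2.47% in the right arm of I (from 1.00% to 5.03%) and 2.80% in the left arm of IV (from 1.29% to 5.26%). In the right arm of V 0 of 205 peaks were that wide, which allows a share of up to 1.78% by the exact binomial interval. Each other autosome also had 1 arm with narrower peaks than its centre, with intervals that did not overlap. The medians of arm and centre were 1093 and 1374 bp for the right arm of I, and 971 and 1446.5 bp for the left arm of II. They were 1108 and 1337 bp for the left arm of IV, and 1066 and 1307 bp for the right arm of V. In the opposite arm of each, the interval overlapped that of the centre. Median scores on III were 336 in the left arm, 670 in the centre and 513 in the right arm, and the interval of the left arm, from 252 to 399, lay below the other two. Peaks covered 10.6% of the left arm, 22.7% of the centre and 17.0% of the right arm.

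Set against the other autosomes, the right arm carried more of the excess than the left. The right arm of III had 1.70 times the density of the other right arms together (exact binomial 95% interval from 1.51 to 1.92), and the left arm 1.18 times that of the other left arms (from 1.02 to 1.35). The centre lay between them, with 1.41 times (from 1.30 to 1.53). The right arm of III was denser than each other right arm, from 1.23 times that of II (from 1.06 to 1.43) to 2.65 times that of V (from 2.23 to 3.16). The left arm was not: it had 0.766 of the density of the left arm of I (from 0.651 to 0.900) and 1.03 times that of IV (from 0.869 to 1.21). These intervals also treat peaks as independent and are too narrow. Ratios with a lower end near 1, such as 1.23 and 1.18, therefore do not settle an order. Left and right are positions on the map, and the left arms of different chromosomes share no other property in these data. Chromosome II was the other autosome with a denser right arm, 1.80 times its left (from 1.50 to 2.18), while on I and IV the right arm had 0.763 and 0.741 of the density of the left, with intervals below 1.

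**Figure D2:**
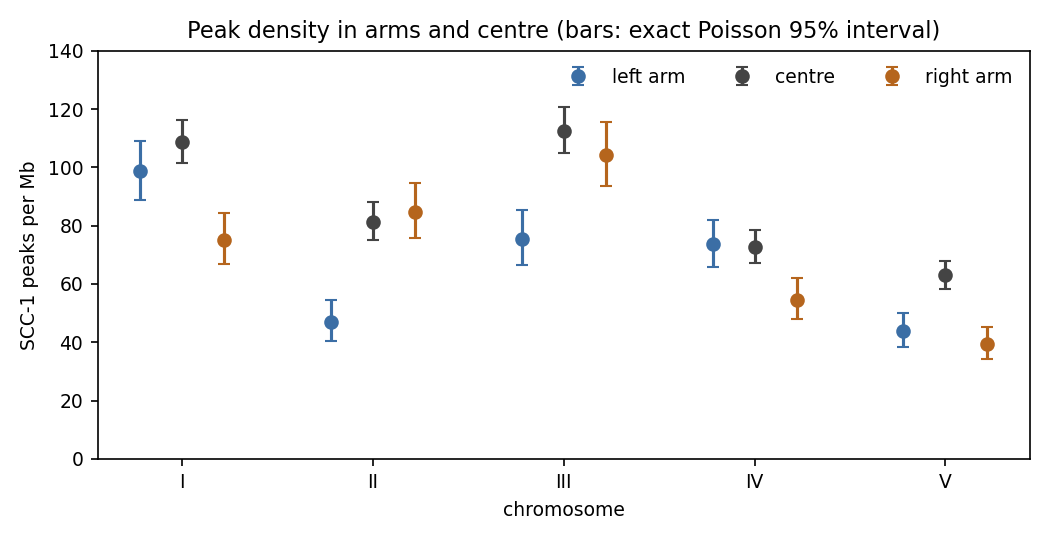
SCC-1 peaks per Mb in the left arm, centre and right arm of each autosome, as points with exact Poisson 95% intervals that cover counting error only. On III the right arm (104.3 per Mb) sits close to the centre (112.5) and the left arm (75.5) lies below both.

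In width, chromosome III did not stand out from the other autosomes. Its peaks were 468 to 10749 bp wide, with a median of 1274 bp (exact interval of the median from 1207 to 1343) and quartiles of 903 and 2087 bp. The medians of the others ran from 1194.5 bp on V (from 1148 to 1241) to 1293 bp on II (from 1228 to 1357), and each of their intervals overlapped that of III. Of the peaks on III 462 were narrower than 1 kb, 557 were from 1 kb to under 2 kb, 310 from 2 kb to under 5 kb, and 65 were 5 kb or wider. These 65 made up 4.66% of the peaks (exact binomial 95% interval from 3.62% to 5.90%), against 4.74% on the other autosomes, and 17.7% of the covered length. The narrowest of them was 5015 bp wide and the widest peak below the threshold 4947 bp. Within each class of score the median widths on III and on the other autosomes had overlapping intervals, from 811 against 790.5 bp in the lowest class to 2733 against 2627.5 bp in the highest.

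**Figure D3:**
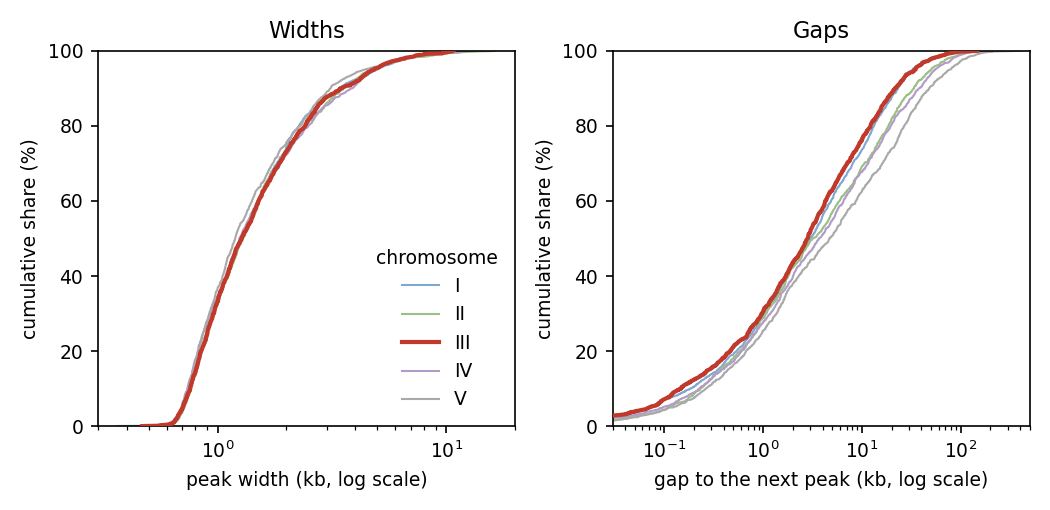
Cumulative percentage of peak widths (left) and of gaps between neighbouring peaks (right) on the 5 autosomes, on log axes in kb, with III in red. The width curves lie on each other, with medians from 1194.5 to 1293 bp, whereas the gap curves lie apart, with 76.0% of the gaps on III and 62.4% on V at 10 kb or less.

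The 5 widest peaks lay in the centre or at the right end. The widest measured 10749 bp (9050012 to 9060760). The next measured 10710 bp (4429457 to 4440166). The last peak of the chromosome followed at 10631 bp (13761842 to 13772472). The others measured 10506 bp (8163019 to 8173524) and 10296 bp (3863588 to 3873883). The terminal peak had a score of 3004, the peak from 8163019 a score of 2123, and the other 3 the score 3100. In all, 7 of the 1394 peaks of III were 10 kb or wider. The counts were 9 of 1472 on I, 8 of 1122 on II, 8 of 1194 on IV and 3 of 1090 on V. No interval was computed for these small counts, so they settle no order of the chromosomes. The widest peak of each other autosome was 13340 bp on I, 16522 bp on II, 12666 bp on IV and 10578 bp on V.

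Among the 5 widest peaks, the 4 with neighbours on both sides had a close neighbour before them and an open stretch after them. The widest had a gap of 384 bp before it and 26896 bp after it. The peak from 4429457 had 1981 and 30376 bp, that from 8163019 had 82 and 17792 bp, and that from 3863588 had 9 and 20961 bp. The peak of 10072 bp from 10202511 to 10212582, seventh in width, had the opposite order, with 69322 bp before it and 1003 bp after it, and the peak of 10163 bp from 13614237 to 13624399 had 2033 and 1005 bp. Over the 64 peaks of 5 kb or wider with neighbours on both sides, 19 had 1 gap of 2 kb or less and the other of 10 kb or more, or 29.7% (exact binomial 95% interval from 18.9% to 42.4%). Among the narrower peaks of III it was 248 of 1328, or 18.7% (from 16.6% to 20.9%), so the intervals overlapped and the pattern of the widest peaks was not separated from that of narrower ones.

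Wide peaks had high scores. The value 3100 may be a ceiling for scores too large to compute, so peaks at 3100 cannot be ranked against the few printed above it. Of the 65 peaks of 5 kb or wider, 52 had a score of 3100 or more, or 80.0% (exact binomial 95% interval from 68.2% to 88.9%), against 190 of 1329 narrower peaks, or 14.3%. Over all peaks of III, Spearman's rho between width and score was 0.77, and it ran from 0.74 to 0.78 on the other autosomes. The 11 peaks with scores printed above 3100 were 1101 to 3428 bp wide. The highest printed score, 3219, belonged to a peak of 1101 bp from 12382398 to 12383498 in the right arm. The next, 3202, belonged to the peak from 13103739 to 13105039, also in the right arm. The peak from 7827107 to 7830534 scored 3194, the peak from 8249874 to 8251619 scored 3189, and that from 7083186 to 7085746 scored 3181, all 3 in the centre. A further 231 peaks had exactly 3100, so the order at the top is uncertain. The narrowest peak was also the first, from 2 to 469, 468 bp wide with a score of 248, and 61009 bp without a peak followed it.

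At the median, gaps between neighbouring peaks on III were shorter than on IV and V, but not resolved from those on I and II. The 1393 gaps, each counted from the end of a peak to the start of the next, had a median of 2819 bp (exact interval of the median from 2505 to 3094) and quartiles of 712 and 9334 bp. The median was 3007 bp on I and 3217 bp on II, with intervals that overlapped that of III. It was 3686 bp on IV (from 3160 to 4475) and 4717 bp on V (from 3795 to 5660), with intervals above it. Gaps of 2 kb or less made up 607 of 1393, or 43.6% (exact binomial 95% interval from 41.0% to 46.2%). The background of 41.6% over chromosomes I to V lay within that interval.

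The chromosomes differed more in their long gaps. On III 31 gaps were 50 kb or longer, or 2.23% (exact binomial 95% interval from 1.52% to 3.14%), close to 2.18% on I. It was 5.17% on II (from 3.95% to 6.64%), 6.29% on IV (from 4.98% to 7.82%) and 9.46% on V (from 7.79% to 11.4%), all with intervals above that of III. Such gaps took up 16.9% of the span of III, 15.7% of I, 30.3% of II, 34.0% of IV and 46.8% of V. Of the 275 windows of 50 kb on III 17 held no peak midpoint, or 6.18% (from 3.64% to 9.71%). The share was 4.65% on I (from 2.57% to 7.68%), 12.5% on II (from 8.97% to 16.7%), 12.0% on IV (from 8.81% to 15.9%) and 23.5% on V (from 19.5% to 27.9%). The interval of V lay above those of the other 4. Long gaps and empty windows become fewer as peak density rises, and the part of density in these values was not tested.

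The longest stretch without a peak on III was 148 kb, from 1627399 to 1775037 in the left arm. It began right after a peak of 9700 bp, the only one of the 10 widest that lay in the left arm. The next were 133 kb from 6731807 to 6864931 in the centre and 124 kb from 912474 to 1036753 in the left arm. The longest gaps of the other autosomes were 131 kb on I, 160 kb on II, 226 kb on IV and 404 kb on V. Of the 31 gaps of 50 kb or longer on III, 13 lay in the left arm, 13 in the centre, which is as long as both arms together, and 5 in the right arm. Within the segments, the median gap was 4627 bp in the left arm (exact interval of the median from 3756 to 5793), 2252 bp in the centre (from 1850 to 2643) and 3283 bp in the right arm (from 2365 to 4177).

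Runs of close peaks were counted next. A run was taken as at least 5 successive peaks with every gap 2 kb or less. Chromosome III had 39 runs holding 220 peaks, or 15.8% (exact binomial 95% interval from 13.9% to 17.8%), against a background of 12.3% over chromosomes I to V. The share was 13.8% on I (from 12.1% to 15.7%), 12.0% on II (from 10.2% to 14.1%), 11.7% on IV (from 9.95% to 13.7%) and 6.79% on V (from 5.37% to 8.45%). The intervals of I and II overlapped that of III, and those of IV and V did not. The order of the 5 shares was the order of peak density, whose part in it was not tested. With gaps of 1 kb or less within a run, III was no longer first, with 4.59% of its peaks in runs against 4.89% on I and 4.81% on II.

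The runs of III held 5 to 8 peaks over 8.19 to 21.9 kb. The fullest run held 11 peaks on I, 9 on II, 7 on IV and 15 on V. The median run length was 12.9 kb on III, between 11.8 kb on II and 14.3 kb on V. The fullest runs of III held 8 peaks each, from 2098510 to 2117631 in the left arm, where peaks covered 75.4% of 19.1 kb, and from 5586714 to 5608653 in the centre, where they covered 72.8% of 21.9 kb. The latter was also the longest run. The first of 4 runs with 7 peaks lay from 7151165 to 7171266 in the centre, where peaks covered 75.2% of 20.1 kb. By position, 4 runs lay in the left arm, 25 in the centre, which is as long as both arms together, and 10 in the right arm. Of the left arm peaks 9.62% were in runs (exact binomial 95% interval from 6.32% to 13.9%), and of the centre peaks 18.3% (from 15.7% to 21.2%). The right arm had 14.8% (from 11.3% to 18.9%), which overlapped both, and the interval of the left arm included the background of 12.3%. The order differed elsewhere. On II it was 18.4% in the left arm, 11.0% in the centre and 10.5% in the right arm. On IV it was 16.2%, 7.72% and 16.4%, on V 4.37%, 5.49% and 13.7%, and on I 12.9%, 17.0% and 5.65%.

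The median width of peaks in runs was 1356 bp (exact interval of the median from 1178 to 1487), against 1260.5 bp outside runs (from 1195 to 1333). Their median score was 395 (from 300.2 to 671), against 550 outside (from 481 to 647). Both pairs of intervals overlapped, although the median score in runs lay below the interval outside them, and neither difference was tested. Of the peaks in runs 8 of 220 were 5 kb or wider, or 3.64%, and of the others 57 of 1174, or 4.86%.

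**Figure D4:**
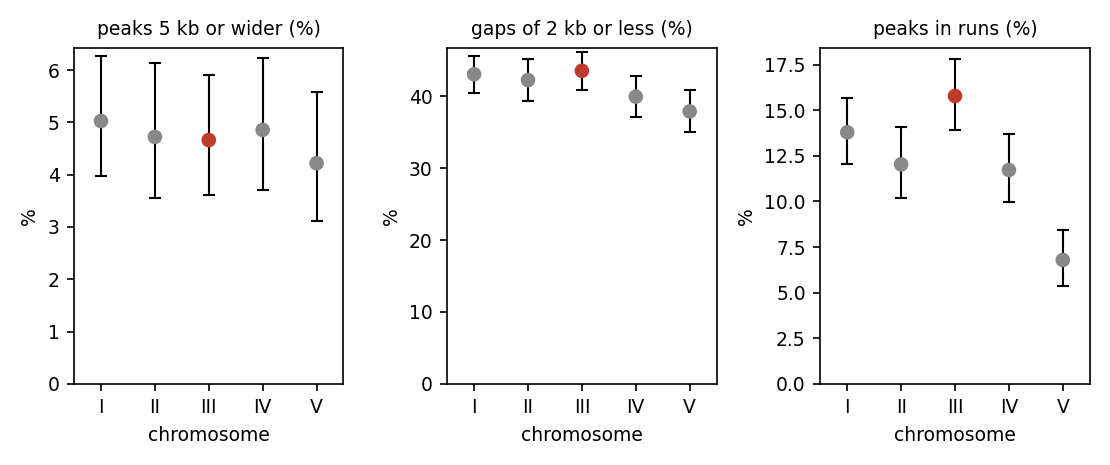
Share of peaks 5 kb or wider, of gaps of 2 kb or less and of peaks in runs on each autosome, as points with exact binomial 95% intervals (counting error only) and III in red. III lies among the others for wide peaks (4.66%) and has the highest point for short gaps (43.6%) and for runs (15.8%). Its interval overlaps those of I, II and IV for short gaps, and those of I and II for runs.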

How the data were processed

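ChIP-seq of SCC-1 was analysed from the peak list of 1 ChIP library, the 1 input library having no file used here. BWA and ce10 are the tool and the build named in the submitters' processing notes. Per the file headers and records, peaks were called with MACS on WormBase WS220. The sources used here give neither the MACS version nor its threshold, nor whether the input was used. The deposited score per peak is the authors' value on a scale that is not named. It was used to rank and filter peaks and to compare medians. Read counts were not analysed, so depth is unknown, and missing peaks and low depth cannot be told apart. Gene annotation and sequence of this build were not used here, so peaks were not assigned to genes. In a further file of the series, 1 score column was not used, because its names give another target and antibody.

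Positions are 1-based. Span ran from the first to the last peak, and peaks were placed by midpoint. The outer 25% at each end were the arms. The 95% intervals of shares are exact binomial (Clopper-Pearson), as are those of density ratios, conditional on the summed count. Medians carry exact binomial order-statistic 95% intervals. The functions were tested on simulated data. The peaks named were the 5 widest, the 5 highest in score, the narrowest, the first and the last, with the 3 longest gaps, the 3 fullest runs, the longest run and the 3 fullest and emptiest windows. The windows beside low ones, the fourth longest gap, the peaks next in width after the 5 widest, the peak before the longest gap, flanking gaps and 50 kb windows were chosen after values were seen. The members and measures were chosen with earlier results of these data known. Alternatives were score filters, merging, arm size, comparison set, thresholds and window size. Values were computed in Python 3.11.15 with scipy 1.17.1 and numpy 2.4.6, and drawn with matplotlib 3.10.9.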

Additional observations from a re-analysis of the deposited data

How the results depend on the processing

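The density ratio of III to the other autosomes, 1.42, stayed above 1 in all alternatives run. It was 1.34 in the top 25% of peaks by score, 1.59 without chromosome I, 1.28 without V and 1.62 with X added. The other alternatives stayed within its interval. The arm to centre ratio of III was 0.608 by covered length, and fell to 0.673 for the top 50% of scores and 0.639 for the top 25%. The right to left arm ratio was 1.72 and 1.77 in these subsets, with both intervals above 1. Arms of 20% or 30% of the span moved neither ratio beyond its interval. Fewer or joined peaks change widths and gaps by construction. In the top 50%, the top 25% and with peaks joined across 500 bp or less, the covered share was 13.1%, 8.24% and 18.7%. In the same order the median width was 1997.5, 2733 and 1475 bp, the share of peaks 5 kb or wider 8.94%, 17.3% and 10.5%, the median gap 7816, 21996 and 4404 bp, the share of gaps of 2 kb or less 24.2%, 11.5% and 28.5%, and the share of peaks in runs 0.698%, 0% and 3.55%. Other thresholds gave 8.39% of peaks at 4 kb or wider and 1.00% at 8 kb or wider, and 30.6% of gaps at 1 kb or less and 62.8% at 5 kb or less. Peaks in runs made up 4.59% with gaps up to 1 kb, 26.8% with gaps up to 3 kb, 43.8% with at least 3 peaks and 0% with at least 10 peaks. The fullest window held 3.15 times the peaks of the emptiest with 250 kb windows and 2.0 times with 1 Mb windows. No paired analysis was possible because no peaks of the input library were analysed here.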

Other observations

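Peaks that nearly touch were common on III. Of its 1393 gaps 100 were 100 bp or shorter, or 7.18% (exact binomial 95% interval from 5.88% to 8.66%), and the shortest was 1 bp, at position 7332901. The share was 7.14% on I, 5.20% on IV (from 4.01% to 6.61%), 4.41% on V (from 3.27% to 5.80%) and 4.28% on II (from 3.17% to 5.64%). The intervals of II and V lay below that of III. Whether such neighbours are separate sites was not tested.

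Isolated peaks, with no other peak within 10 kb on either side, numbered 86 on III, or 6.18% of the peaks with neighbours on both sides (exact binomial 95% interval from 4.97% to 7.57%). The share was 7.55% on I, 10.5% on II, 11.9% on IV and 13.7% on V, and the interval of I overlapped that of III. These shares rose as peak density fell, and the part of density in them was not tested. On III their median width was 1119 bp (exact interval of the median from 972 to 1367). Neighbouring peaks on III were hardly alike, with a Spearman's rho of 0.07 between their widths and of -0.02 between their scores over 1393 pairs. This was not particular to III. On the other autosomes rho ran from 0.04 to 0.08 for widths and from -0.03 to -0.003 for scores.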
